A study of Mus musculus with 2 samples.

Results

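NF-kB and Toll-like receptor signalling was described here as 34 mouse genes: 18 pathway components (receptors, adaptors, kinases and transcription factors), 8 inhibitors, most of them themselves induced by the pathway, and 8 inflammatory outputs. They were measured in hematopoietic stem cells (HSC, the bone marrow cells from which all blood lineages arise) on 2 Affymetrix arrays. The cells were labelled SIRT6 knockout for the first array and wild type for the second and came from mice 3 months old, so each genotype had 1 array and no replicate. The sources used here do not say how the cells were isolated, whether animals were pooled or how the allele was disrupted. Probe sets were assigned to a member where the platform annotation named that gene alone. This gave 64 probe sets for 31 of the 34 members, out of 18193 genes named on the array. No probe set was named for Chuk (the IKK-alpha kinase), Nfkb1 (the p105 precursor of p50) or Ripk2 (the kinase downstream of the Nod receptors), and they were not analysed here.

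Toll-like receptors recognise microbial products and pass the signal through the adaptor Myd88 and the ubiquitin ligase Traf6 to the IkB kinase complex. That complex marks the inhibitor IkB for degradation, which frees dimers of Rel proteins to enter the nucleus and switch on inflammatory genes. Among the genes they switch on are inhibitors such as Nfkbia and Tnfaip3, which close the loop. HSC carry some of these receptors and can respond to infection directly. SIRT6, a nuclear deacylase of histones, has been described to bind the Rel protein RelA and to remove acetyl groups from histone H3 at NF-kB target promoters. The comparison of the arrays addresses how transcript levels in HSC differ when Sirt6 is knocked out.

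Rel dimers bind a 10-base element, the kappaB motif, so the promoters of the members were searched for it. RefSeq promoter windows (GRCm38.p6, 250 bases before to 50 after a transcription start) were found for 25 of the 34 members. The words searched on both strands were GGGANNCCCC, GGGANNCTCC, GGGANNTCCC, GGGANNTTCC, GGGGNNCCCC, GGGGNNCTCC, GGGGNNTCCC and GGGGNNTTCC, where N is any base. Some matches overlap each other or read as a match on both strands, so genes and not matches were counted. A match was found in at least 1 window of 11 of the 25 members, against 9.55% of the 27025 genes with a window. By role, these were 5 of 7 inhibitors (Nfkbia, Nfkbie, Bcl3, Tnfaip3 and Tnip1), 3 of 6 outputs (Il6, Tnfaip2 and Ier3) and 3 of 12 components (Tlr2, Nfkb2 and Rel). The members are in part textbook targets of the pathway, so this share describes the choice of genes and says nothing of the genotypes. The 5 stretches below are those with a match upstream of the start among the measured members with the largest signal ratios. Of these, the inhibitors Nfkbia and Nfkbie were lower on the array labelled knockout. The inhibitor Tnfaip3 and the outputs Tnfaip2 and Ier3 were higher. Each is given 5′ to 3′ on the strand of its gene, with the match in capitals. The same window of Tnfaip3 held a further match, starting at base -12, which lies outside the stretch.
Nfkbia (chr12:55492652-55492691, minus strand, bases -44 to -5 from the start): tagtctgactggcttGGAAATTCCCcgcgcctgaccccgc
Nfkbie (chr17:45555579-45555618, plus strand, bases -121 to -82): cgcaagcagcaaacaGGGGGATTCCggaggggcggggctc
Tnfaip3 (chr10:19015511-19015550, minus strand, bases -140 to -101): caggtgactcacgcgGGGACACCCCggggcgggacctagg
Tnfaip2 (chr12:111442622-111442660, plus strand, bases -39 to -1): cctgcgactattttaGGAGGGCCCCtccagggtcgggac
Ier3 (chr17:35821606-35821645, plus strand, bases -107 to -68): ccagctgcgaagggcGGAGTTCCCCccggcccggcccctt
A match is a stretch of letters and not a measured binding site. The members with the largest positive ratios among inhibitors and outputs, Nfkbib and Il1b, held no match in their windows.

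The deposited values are linear MAS5 signals, 1 per probe set and array, and the arrays had near-equal medians (60.7 labelled knockout and 60.8 wild type). Signals under a floor of 60.5, the median over all probe sets, were treated as not measured because dim MAS5 values are mostly noise. Of the 31 members with a probe set, 27 lay above the floor on both arrays and 4 lay below it on both (Traf1, Relb, Il6 and Cd83), so no member was measured through 1 array alone. A gene is given by its brightest probe set, and ratios are the array labelled knockout over wild type on the log2 scale. With 1 array per genotype no test, SD or p-value between genotypes can be had, and the number of arrays limits the precision. The only spread available was that between probe sets of a shared gene. Their log2 ratios differed with an SD of 0.22 over 4632 genes, which corresponds to 1.17-fold. Error of the RNA samples or arrays that the probe sets of a gene share is not in this SD. Sirt6 itself had 1 probe set, with 174 on the array labelled knockout and 124 in wild type, which does not check the label, since the sources used here do not place it relative to the disrupted part. Every direction below therefore rests on the label.

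None of the 27 measured members differed by 1.5-fold between the arrays: 0 reached that size upward and 0 downward. Over the 11547 measured genes 1.71% were higher by that size and 2.63% lower, so a list of 27 genes with few or no such members is near the background. At a smaller size of 0.32 log2 units, Il1b and Nfkbib were higher and Tlr4 was lower, against 7.26% of all measured genes higher and 8.56% lower. The median absolute log2 ratio was 0.12 over the members and 0.13 over all measured genes. Positive ratios were found in 16 of the 27 members and in 50.4% of all measured genes. Of the 27 members, 8 lay past 1 SD between probe sets, against 28.3% of all measured genes.

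**Figure D1:**
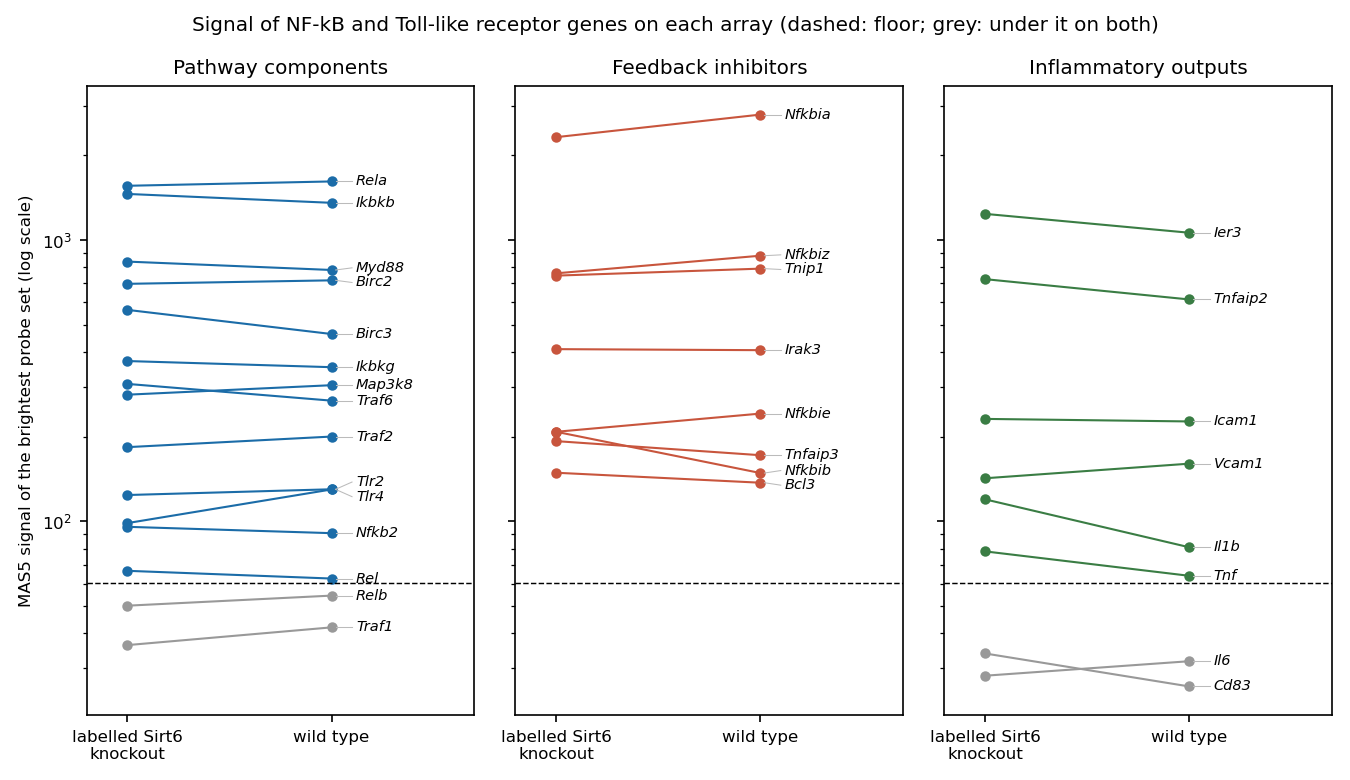
MAS5 signal (log scale) of the brightest probe set of each of the 31 members with a probe set, on the array labelled Sirt6 knockout (left) and the wild-type array (right) of each panel, 1 array each. The dashed line is the floor of 60.5, and the 4 members in grey lie under it on both arrays; most lines are close to level, and the steepest among the coloured ones are those of Il1b, Nfkbib and Tlr4.

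Among the receptors, Tlr2, which senses bacterial lipoproteins, read 124 on the array labelled knockout and 129.95 in wild type (log2 -0.07). Tlr4, the receptor of lipopolysaccharide, read 98.6 on the array labelled knockout and 129.8 in wild type on its brighter probe set (log2 -0.40). Its second measured probe set read 80.7 on the array labelled knockout and 97.0 in wild type (log2 -0.26). Both measured probe sets of Tlr4 were thus lower on the array labelled knockout, by more than the SD between probe sets, while 20.8% of the 2033 measured genes of like signal (within 0.5 log2 units) differed at least as much as its brighter probe set. Ly96 (MD-2), the protein that holds lipopolysaccharide on Tlr4 and is no member of the 34, read 96.8 on the array labelled knockout and 129 in wild type (log2 -0.41). Cd14, which passes lipopolysaccharide to them, was under the floor on both arrays.

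The adaptors and ubiquitin ligases downstream differed little. Myd88, the adaptor shared by most Toll-like receptors and the IL-1 receptor, read 837 on the array labelled knockout and 781 in wild type (log2 0.10). Traf6, the ligase that acts after Myd88, read 308 on the array labelled knockout and 268 in wild type (log2 0.20). Its other 4 probe sets also had positive ratios, from 0.18 to 0.41, although 3 of them stayed below the floor throughout and 1 was above it only on the array labelled knockout. Traf2, the adaptor of TNF receptors, read 183 on the array labelled knockout and 200.02 in wild type (log2 -0.12).

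The cIAP ligases, which work with Traf2, differed in direction on their brightest probe sets. Birc2 (cIAP1) read 698 on the array labelled knockout and 718 in wild type (log2 -0.04). Birc3 (cIAP2), itself an NF-kB target, read 564 on the array labelled knockout and 463 in wild type (log2 0.28), past 1 SD between probe sets, but its second probe set gave 78.1 against 80.3 (log2 -0.04). Map3k8, the Tpl2 kinase that is held by the p105 protein and leads to the ERK pathway, read 282 on the array labelled knockout and 304 in wild type (log2 -0.11).

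For the IkB kinase complex, Ikbkb (IKK-beta, the kinase of the canonical pathway) read 1456 on the array labelled knockout and 1354 in wild type (log2 0.10). Its 2 dimmer measured probe sets gave larger ratios, with 169 against 117 (log2 0.53) and 129 against 87.9 (log2 0.55). All 3 pointed to a higher signal on the array labelled knockout, but the sizes span more than the SD between probe sets. Ikbkg (NEMO, the regulatory subunit) read 371 on the array labelled knockout and 353 in wild type (log2 0.07), and its 4 measured probe sets ran from -0.28 to 0.07.

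Among the Rel proteins, Rela, the main activating subunit, read 1556 on the array labelled knockout and 1612 in wild type (log2 -0.05). Nfkb2, the p100 precursor of p52 in the non-canonical pathway, read 95.6 on the array labelled knockout and 90.7 in wild type (log2 0.07), with its second probe set at 0.03. Rel, the c-Rel subunit of lymphoid and myeloid cells, read 66.7 on the array labelled knockout and 62.6 in wild type (log2 0.09), close to the floor on both. Relb, the partner of p52, was under the floor, with 50.1 on the array labelled knockout and 54.5 in wild type. Traf1, an adaptor induced by the pathway, was also under it, with 36.3 on the array labelled knockout and 42.0 in wild type. Each of the 3 measured Rel genes had a ratio well inside the SD between probe sets. The median log2 ratio of the 13 measured components was 0.07, with 7 positive and 6 negative ratios, against 0.0023 over all measured genes.

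The inhibitors split by gene. The IkB genes Nfkbia, Nfkbiz and Nfkbie were lower on every measured probe set on the array labelled knockout, each by less than 0.32 log2 units, while Nfkbib was higher. Nfkbia (IkB-alpha, which holds Rel dimers in the cytoplasm and is resynthesised after each pulse) read 2316 on the array labelled knockout and 2786 in wild type on its brightest probe set (log2 -0.27). The other 4 read 1340.2 against 1477, 938 against 1031, 855 against 917 and 169.8 against 188 (log2 -0.10 to -0.15). All 5 were lower, which was so in 1 direction or the other for 23% of the 252 genes with at least 5 measured probe sets. Of the 624 measured genes of like signal, 6.25% differed at least as much as the brightest one.

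Nfkbiz (IkB-zeta, a nuclear IkB protein needed for secondary targets such as Il6) was lower on its 3 measured probe sets. They read 760.4 against 878 (log2 -0.21), 303 against 364 (-0.26) and 78.6 against 84.0 (-0.10), the array labelled knockout first. Nfkbie (IkB-epsilon, an inhibitor that acts later than IkB-alpha) read 208 on the array labelled knockout and 241 in wild type (log2 -0.21), with its second probe set at 203 against 223 (-0.13). Probe sets of a gene read the same RNA and may overlap in sequence, so their shared direction repeats a measurement of the same samples and is no replicate.

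Nfkbib (IkB-beta) read 208 on the array labelled knockout and 148 in wild type (log2 0.49), the largest positive ratio among the inhibitors. That value came from a probe set of the kind that can also match related transcripts, and its other probe set was under the floor, at 56.5 against 54.0. Of the 2132 measured genes of like signal, 9.52% differed at least as much. Other members share the limit on matching: the brightest probe sets of Nfkbie and Tnfaip2 and some of those of Nfkbia are of that kind too. Bcl3, a nuclear IkB protein that can act as a coactivator, read 149 on the array labelled knockout and 137 in wild type (log2 0.12).

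Inhibitors that act upstream of IkB lay within the SD between probe sets. Tnfaip3 (A20, an enzyme that edits ubiquitin chains and ends the signal) read 193 on the array labelled knockout and 172 in wild type (log2 0.17). Tnip1, its partner ABIN-1, read 746 on the array labelled knockout and 790.1 in wild type (log2 -0.08). Irak3 (IRAK-M, which blocks signalling from Myd88) read 409 on the array labelled knockout and 406 in wild type (log2 0.01), the smallest absolute ratio of the 27 members. The median of the 8 genes grouped as inhibitors was -0.04, with 4 positive and 4 negative ratios. That group includes Nfkbiz, needed for secondary targets, and Bcl3, which can act as a coactivator.

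**Figure D2:**
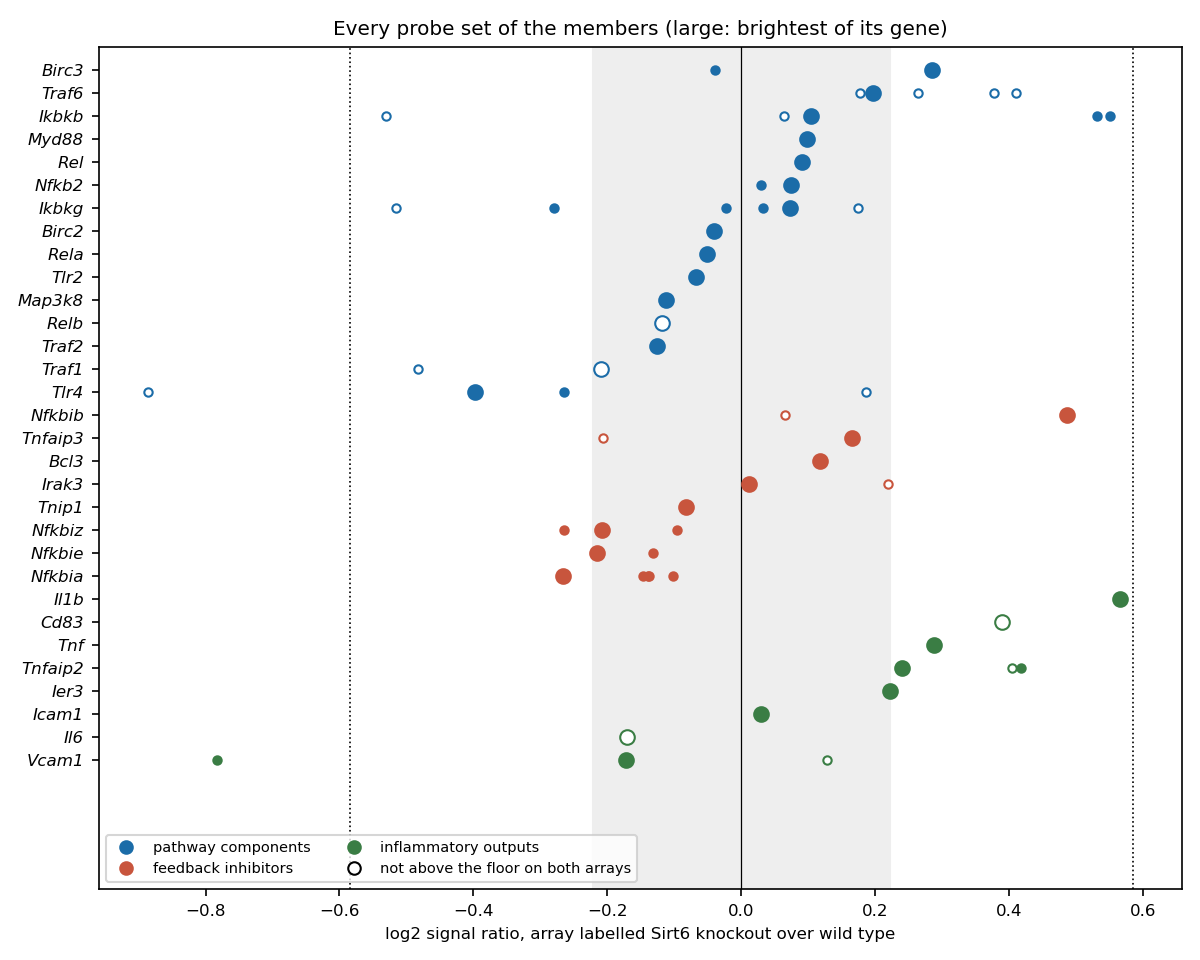
Log2 signal ratio (array labelled Sirt6 knockout over wild type) of each of the 64 probe sets of the members, 1 row per gene. Large points are the brightest probe set of a gene, open points were not above the floor on both arrays, the grey band is 1 SD between probe sets (0.22) and dotted lines mark 1.5-fold; the 5 probe sets of Nfkbia and the 3 of Nfkbiz all lie left of 0, while 1 filled point, a dimmer probe set of Vcam1, lies past a dotted line.

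Of the 10 members with at least 2 measured probe sets, 8 had all of them on the same side, 3 higher (Ikbkb, Nfkb2 and Tnfaip2) and 5 lower (Tlr4, Nfkbia, Nfkbie, Nfkbiz and Vcam1). Over all 4632 such genes the share was 52.4%, and it depends on the number of probe sets, from 62% with 2 to 23% with at least 5. Probe sets under the floor on both arrays are left out of these counts. Those of Ikbkb (-0.53), Ikbkg (-0.52), Tnfaip3 (-0.21) and Vcam1 (0.13) had the opposite sign to the brightest one. Those of Tlr4 went both ways (0.19 and -0.89), and those of Traf6, Irak3, Nfkbib and Tnfaip2 had the same sign.

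Among the outputs, 5 of 6 measured genes had a positive ratio, and the median log2 ratio was 0.23. Il1b, the cytokine IL-1 beta made mainly by myeloid cells, read 119.7 on the array labelled knockout and 80.9 in wild type, a ratio of 1.48 (log2 0.57), the largest of the 27 members. Of the 2035 measured genes of like signal, 9.98% differed at least as much. Tnf, the cytokine that itself activates the pathway, read 78.2 on the array labelled knockout and 64.0 in wild type (log2 0.29), both close to the floor, and 31.6% of genes of like signal differed at least as much. Il6, the third of these cytokines, was under the floor, with 28.3 on the array labelled knockout and 31.8 in wild type.

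Tnfaip2, a gene induced by TNF in endothelial and myeloid cells, read 725 on the array labelled knockout and 614 in wild type (log2 0.24). Its second measured probe set read 227 against 170.1 (log2 0.42), so both were higher on the array labelled knockout. Ier3 (IEX-1), an early response gene that modulates cell survival, read 1237 on the array labelled knockout and 1059.9 in wild type (log2 0.22). Cd83, a surface protein of activated antigen-presenting cells, was under the floor, with 33.9 on the array labelled knockout and 25.9 in wild type.

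The adhesion molecules, which bind integrins of leukocytes, had ratios of opposite sign. Icam1 read 231 on the array labelled knockout and 226 in wild type (log2 0.03). Vcam1, which in marrow is made by stromal cells and macrophages among other cells, read 142 on the array labelled knockout and 160.2 in wild type (log2 -0.17). This was its brighter probe set. Its second measured probe set read 80.5 on the array labelled knockout and 138 in wild type (log2 -0.78), past 1.5-fold. The probe sets of Vcam1 had the same direction and differed by more than the SD between probe sets, so its size is uncertain.

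**Figure D3:**
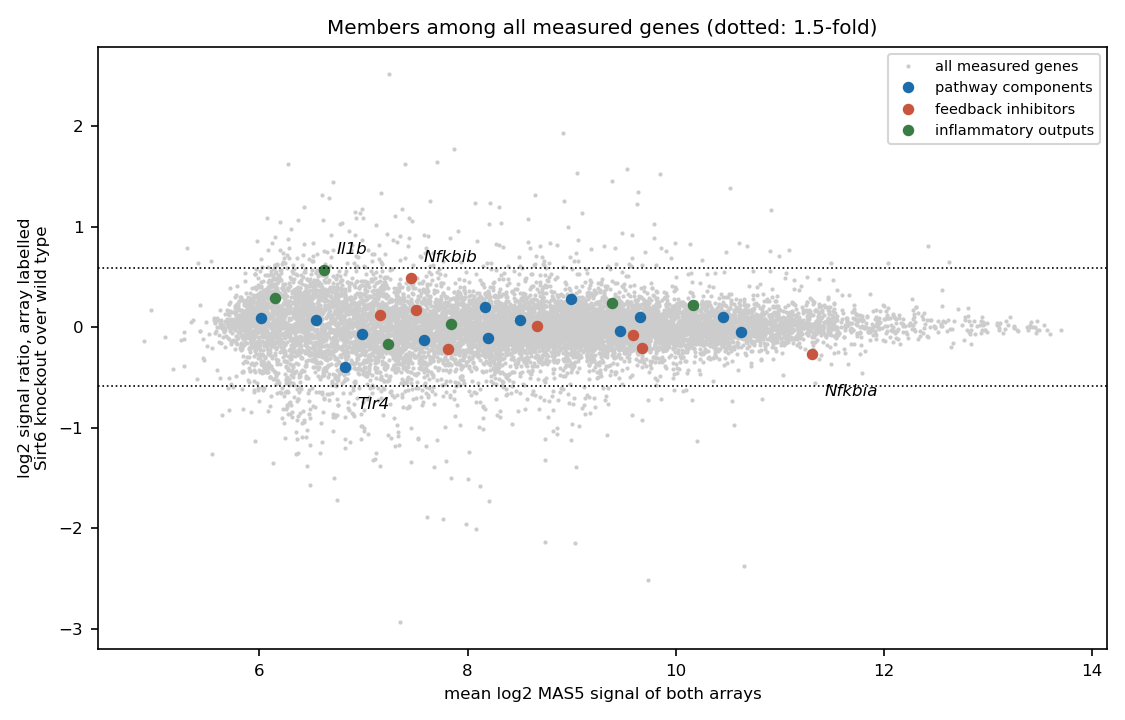
Log2 signal ratio (array labelled Sirt6 knockout over wild type) against the mean log2 signal of both arrays, for the 11547 measured genes (grey) and the 27 measured members (coloured by role). Dotted lines mark 1.5-fold; all members lie between them, and Il1b, at 0.57, is nearest to the upper one.

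Of 35 measured further receptors, adaptors and kinases out of 50 listed, 0 passed 1.5-fold in either direction. Over all measured genes 1.71% were higher and 2.63% lower by that size, so this count is near the background. In this list 23 genes had a positive and 11 a negative ratio, and the median was 0.06. The largest ratios were those of Cd180 (log2 0.43), a Toll-like receptor homologue of B cells, Ly96 (-0.41), described above, and Map3k14 (0.34), the NIK kinase of the non-canonical pathway. Cd180 read 189 on the array labelled knockout and 139.7 in wild type. Map3k14 read 164 on the array labelled knockout and 129 in wild type, and its other measured probe set had the opposite direction (-0.32). Of the other Toll-like receptors listed, Tlr7 was above the floor on both arrays (91.7 on the array labelled knockout and 75.4 in wild type) and Tlr6 only on the array labelled knockout. Tlr1, Tlr3, Tlr5, Tlr8, Tlr9 and Tlr13 were under it on both.

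Of 14 measured further inhibitors out of 16 listed, 0 passed 1.5-fold in either direction, with a median of 0.06. That count too is near the background of 1.71% higher and 2.63% lower over all measured genes. Nlrc3, a negative regulator of Traf6, had the largest ratio (373 on the array labelled knockout and 267 in wild type, log2 0.48), with its second measured probe set at -0.09. Nlrx1, a mitochondrial regulator, was below the floor on the array labelled knockout and so at least 1.34-fold lower there. Pdlim2, a ligase that ends RelA activity, read 164 on the array labelled knockout and 215 in wild type (log2 -0.39).

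Of 18 measured further NF-kB targets out of 30 listed, 2 were higher and 1 was lower by 1.5-fold or more, with a median of -0.0092. The shares over all measured genes were 1.71% higher and 2.63% lower. The higher ones were Clec4e, a receptor of mycobacterial glycolipids on myeloid cells (614 on the array labelled knockout and 349 in wild type, log2 0.81), and Mmp9, a gelatinase stored in neutrophil granules (142 on the array labelled knockout and 91.8 in wild type, log2 0.63). The lower one was the chemokine gene Ccl3 (126 on the array labelled knockout and 219 in wild type, log2 -0.79). Of the 28 listed targets with a probe set, 10 lay below the floor on both arrays, among them Ptgs2, Nos2 and Cxcl2, while others such as Ccl4 (462 on the array labelled knockout and 460.3 in wild type) and Irf1 (789.7 on the array labelled knockout and 855 in wild type) were measured.

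Genes with a kappaB match in a promoter window had nearly the same median ratio as genes without one. The 1136 such measured genes had a median log2 ratio of 0.0017, and the 8255 measured genes with a window but no match had a median of 0.00041. At least 1.5-fold higher were 1.58% of the genes with a match and 1.59% of those without, and at least 1.5-fold lower were 2.73% and 2.56%. Among the 163 measured genes with at least 2 matches in 1 window the median was 0.0063, with 1 gene (0.613%) at least 1.5-fold higher and 7 (4.29%) lower.

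Markers of myeloid cells differed between the same arrays. All 12 measured granulocyte markers out of 15 listed had positive ratios, 10 of them at least 1.5-fold, with a median of 0.78, and their signals summed to 37246 on the array labelled knockout and 23234 in wild type. The largest ratios were those of Lcn2 (log2 1.26), Ms4a3 (1.17), Chil3 (0.93) and Ngp (0.84). Mmp8 of that list was below the floor on both. Of 12 measured monocyte and macrophage markers out of 15, 7 had positive and 5 negative ratios and 1 (F13a1, log2 1.57) was at least 1.5-fold higher, with a summed signal of 3404 on the array labelled knockout and 2257 in wild type (2131 and 1829 without F13a1). Adgre1 was near the floor on both arrays (63.3 on the array labelled knockout and 67.7 in wild type). Il1b, Tnfaip2, Clec4e and Mmp9, all higher on the array labelled knockout, are expressed in such cells. The pathway genes were not sorted by the cells that express them. Pathway genes lower on that array, which may be expressed in such cells too, included Tlr4 (log2 -0.40), Ly96 (-0.41) and Ccl3 (-0.79). Of the 18 measured further NF-kB targets, 9 had positive and 9 negative ratios. In bulk RNA a different share of cells cannot be told apart from a different amount of RNA per cell. The part of these cells in the ratios of the outputs was not tested.

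The label HSC was set beside 12 measured markers. All 12 were above the floor on both arrays, among them Kit (1746 on the array labelled knockout and 1709 in wild type), Cd34 and Slamf1. Of all 18193 named genes, 11547 were measured, so this is a weak check of the label. The granulocyte marker Mpo was brighter than Kit, with 7914 on the array labelled knockout and 5051 in wild type. Of the 12 HSC markers, 4 were lower by 1.5-fold or more on the array labelled knockout (Fgd5, Hlf, Procr and Mecom) and 1 was higher (Thy1). The endothelial and stromal list, whose cells express Vcam1, had 4 of 7 measured genes lower and 2 higher by 1.5-fold or more, and a median log2 ratio of -0.63. Its largest ratios were those of Cxcl12, a chemokine of marrow stroma (at least 7.63-fold lower), Emcn (log2 -1.50), Pdgfrb (0.92) and Sparc (-0.86). Its signals summed to 1718 on the array labelled knockout and 1824 in wild type. The direction of the summed signal depended on single genes. It was 669 and 1268 without Pdgfrb, but 1661 and 1363 without Cxcl12, and 1656 and 1648 without Emcn. Cdh5, Lepr, Col1a1, Col3a1 and Dcn lay below the floor on both arrays. Whether the measured genes of that list were read from such cells or from the HSC themselves was not tested. Their part in the ratio of Vcam1 was not tested either. Of the T and NK cell markers 2 of 10 were measured (Cd8a and Nkg7), and all 7 measured B cell markers had positive ratios, 3 of them at least 1.5-fold (Vpreb1, Igll1 and Blnk).

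**Figure D4:**
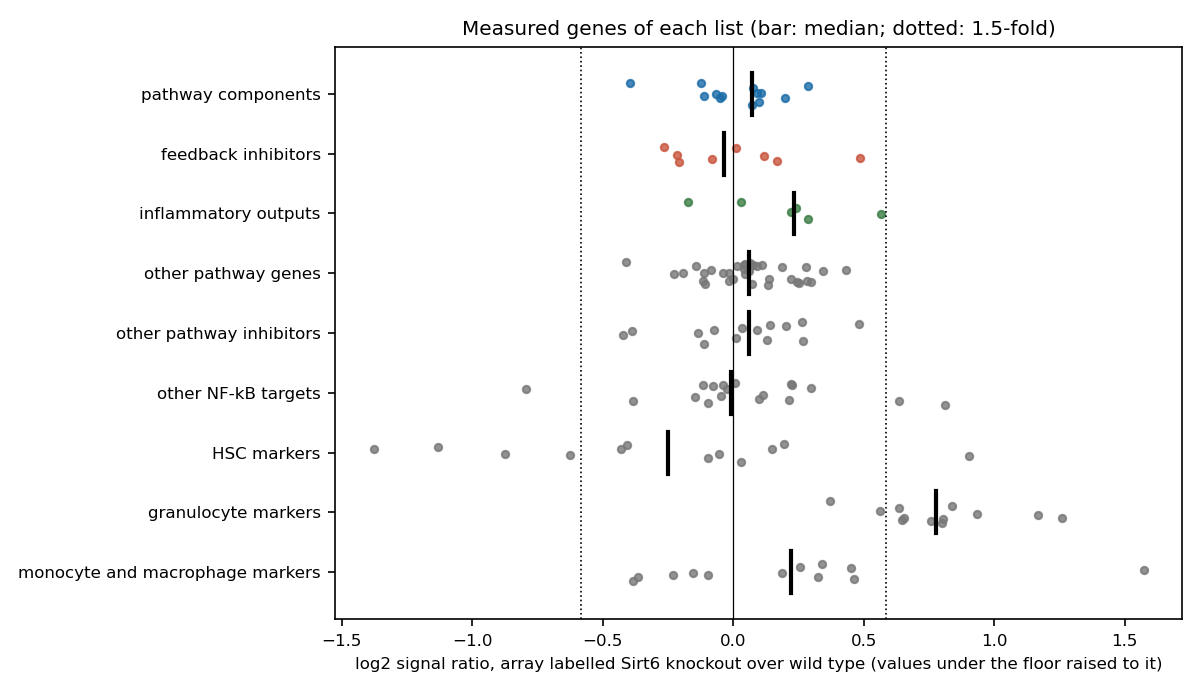
Log2 signal ratio (array labelled Sirt6 knockout over wild type) of each measured gene in the 3 member groups, in 3 lists of further pathway genes and in 3 lists of cell type markers, with values under the floor raised to it. Bars are medians and dotted lines mark 1.5-fold; the medians of the pathway lists run from -0.04 to 0.23, against 0.78 for granulocyte markers and -0.25 for HSC markers.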

How the data were processed

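RNA of 2 samples, labelled Sirt6 knockout and wild type, was hybridised to 1 array each. The authors deposited linear signal intensities made with MAS5, per the submitters' processing notes; no scaling target, software version or detection call is stated there. The values were used as deposited and taken to log2. Of 45037 probe sets, 34945 named 1 gene in the platform annotation, 932 several and 9160 none; 34741 matched a RefSeq record by Entrez identifier, with 0 symbols altered. Each gene took the value of its probe set of highest mean log2 signal. The floor was percentile 50 of the mean log2 signal over probe sets; values under it were raised to it, and a ratio against such a value is a bound. Sizes of 0.32 log2 units, 1.5-fold and 2-fold were counted, with no test between genotypes. The precision is limited by 1 array per genotype.

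The members and lists were chosen with earlier results of these data known. All members were named; of the other pathway lists, genes at least 1.5-fold different and the 3 largest ratios were named, and of each marker list up to 4 genes of largest ratio. Further genes named (Cd14, Tlr7, Tlr6, Ccl4, Irf1, Adgre1, Mecom, Kit, Cd34, Slamf1, Mpo and genes below the floor) were chosen after their values were seen. Alternatives were another scaling, floor, pseudocount, size or choice of probe sets. Python 3.11.15, numpy 2.4.6, pandas 2.3.3 and matplotlib 3.10.9 were used, and the counting was tested on simulated data.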

Additional observations from a re-analysis of the deposited data

How the results depend on the processing

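The ratios of the 27 measured members kept their sign under each of the 8 alternatives in which they had a value (15 members with the floor at percentile 75, and 26 without probe sets ending in _x_at or _s_at). Only that of Vcam1 moved by more than the SD between probe sets, to -0.48 as the median over its probe sets. The count of members at least 1.5-fold higher was 1 after quantile normalization, when Il1b reached a log2 ratio of 0.61. It was 0 under the other scalings, floors and probe set choices. The ratio of Il1b moved further in the other direction, from 0.57 to 0.35, with a pseudocount of 1 floor. There it lay below that of Nfkbib (0.36), so Il1b was not the largest under every setting. At the smaller size of 0.32 log2 units, 2 members were higher and 1 was lower. The median of the components changed sign to -0.04 with the floor at percentile 25 or with no floor, which added dim genes, that of the inhibitors stayed negative, and that of the outputs ran from 0.18 to 0.26. Over all genes, the counts at least 1.5-fold higher and lower were 198 and 304. They were 461 and 462 with the floor at percentile 25, 83 and 93 with it at percentile 75, 986 and 693 with no floor, 113 and 161 with a pseudocount of 1 floor, and 46 and 66 at a size of 2-fold. The median of the further NF-kB targets had no stable sign, from -0.04 to 0.11. No paired analysis was possible because each genotype had 1 array. Rel and Tnf lay close to the floor, and signal over background limits what their ratios show. Il1b was also dim in wild type (80.9) and rested on 1 probe set, so the same limit bears on its ratio.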
